A study of Mus musculus with 2 samples.

Results

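Cytochrome P450 enzymes are heme proteins that insert 1 oxygen atom into fatty acids, steroids, vitamins and foreign compounds. Most sit in the endoplasmic reticulum and take electrons from P450 oxidoreductase, and a few sit in mitochondria and take them from ferredoxin. In the kidney the family is known mainly from the proximal tubule, where the CYP4 enzymes hydroxylate fatty acids, the CYP2C and CYP2J enzymes make epoxides of arachidonic acid, and Cyp27b1 activates vitamin D. The P450 genes described here are those with an array probe, control spots left out, whose gene name in the scanner files is Cyp followed by a family number, a subfamily letter and a gene number. The rule found 63 genes with 66 probes, of 19481 genes or other named targets with 20868 distinct probes on the array, and 3 genes (Cyp2d26, Cyp2b13 and Cyp26b1) had 2 probes each. The rule used names and no measured value.

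Whole kidney RNA of Glis2 mutant mice was compared with that of wild type mice on 2 Agilent arrays of 60-base probes. The labels name the mutant kidneys Glis2 KO, for knockout. Glis2 encodes a Krüppel-like zinc finger protein. Each array held both genotypes in 2 colours: on array 1 the Glis2 mutant RNA carried Cy3 and the wild type RNA Cy5, and on array 2 the dyes were exchanged. The series design names kidneys of postnatal days 25 and 60, pools of 3 kidneys, 2 independent experiments and arrays run in duplicate. The sources used here do not give the age of the kidneys on either array, their sex or strain, the structure of the mutant allele, or whether the arrays hold separate pools or repeats of the same RNA. The p-values and SE below therefore rest on the spread between 2 arrays, which may be technical. They are moderated by limma: the spread of each probe is drawn strongly toward a value common to all probes tested. The SE of a probe is thus not its own spread alone. If both arrays hold the same RNA there is a single biological comparison.

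In each colour of each array, 94.6% to 97.4% of probes were marked by the scanner software as well above background, and 7 to 17 spots saturated. No P450 probe was saturated (0 probes). The Glis2 probe had log2 ratios (mutant over wild type) of 0.32 on array 1 and 0.16 on array 2 and was not called different (mean 0.24 ± 0.11 SE, n = 2 arrays, limma adjusted p = 0.347), so it did not serve as a check of the labels. Whether the probe lies in the altered part of the gene is not given. Of 9 tested kidney markers, 8 were not called and 1, Slc34a1, was called lower, and loop and collecting duct markers such as Umod, saturated in at least 1 channel, and Aqp2 were well above background. Over all 19575 probes tested, Pearson's r between the log2 ratios of the arrays was 0.577 after the dye exchange was allowed for, given as a description across probes.

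The promoters of 3 of the 5 genes whose probes were called different are shown because these genes carry the results below. They are RefSeq sequences of build GRCm38.p6 from 250 bases before to 50 bases after the gene's start, written 5′ to 3′ on the gene's strand, which is the minus strand for all 3. Cyp4b1 lies at chr4:115647672-115647971, Cyp2d26 at chr15:82794196-82794495 and Cyp1b1 at chr17:79715012-79715311. Capitals mark a TATAAA match, read on the other strand, in Cyp2d26 and a GCGTG match, read on the other strand, in Cyp1b1.
Cyp4b1: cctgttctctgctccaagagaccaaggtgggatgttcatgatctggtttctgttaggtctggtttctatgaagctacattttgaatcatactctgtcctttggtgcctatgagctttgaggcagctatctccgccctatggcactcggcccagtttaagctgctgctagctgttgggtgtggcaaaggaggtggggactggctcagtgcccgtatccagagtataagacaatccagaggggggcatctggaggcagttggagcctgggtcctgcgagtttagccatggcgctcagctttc
Cyp2d26: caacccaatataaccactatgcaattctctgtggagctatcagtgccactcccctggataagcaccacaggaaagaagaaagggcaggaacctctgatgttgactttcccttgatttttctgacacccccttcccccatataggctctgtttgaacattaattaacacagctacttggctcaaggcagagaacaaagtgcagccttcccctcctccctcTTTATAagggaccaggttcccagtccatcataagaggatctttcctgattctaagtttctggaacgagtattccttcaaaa
Cyp1b1: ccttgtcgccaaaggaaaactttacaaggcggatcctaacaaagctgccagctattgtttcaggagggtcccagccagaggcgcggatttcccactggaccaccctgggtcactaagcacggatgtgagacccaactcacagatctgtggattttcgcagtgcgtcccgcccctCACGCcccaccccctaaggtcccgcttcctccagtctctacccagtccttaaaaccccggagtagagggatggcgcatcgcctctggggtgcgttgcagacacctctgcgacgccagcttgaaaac
Cyp2c44 and Cyp4a14 were the other called genes.

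These motifs were looked for on both strands. GCGTG, the core bound by the aryl hydrocarbon receptor with its partner, was in 32.4% of 32851 promoter windows and in 19% of the 58 windows of P450 genes. AGGTCA, the half-site of many nuclear receptors, was in 16.3% of all windows and 24.1% of P450 windows, and a direct repeat of that half-site with 1 base between the copies (DR1) was in 0.0396% of all windows and in 0 of the P450 windows. TATAAA was in 13.6% of all windows and 41.4% of P450 windows. Of the 63 gene symbols, 49 had a window. The Cyp4b1 window held none of these letter strings, which says only that they are not in that stretch.

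A log2 ratio was computed for each probe on each array, a probe was tested if at least 1 genotype was well above background on both arrays, and a probe was called at a limma adjusted p under 0.05 with Benjamini-Hochberg adjustment over all probes tested. Of the 66 P450 probes, 65 were tested. Cyp11b2, aldosterone synthase of the adrenal cortex, was not, being well above background on 1 of 2 arrays in each genotype. In the mutant kidneys 4 P450 probes were called lower, against 1.06% of all probes tested, and 1 was called higher, against 3.41% of all probes. These are 6.15% and 1.54% of the P450 probes tested, and together the 5 calls are 7.69% of them, against 4.47% of all probes in either direction. The probes called lower were Cyp4b1, Cyp2c44, Cyp4a14 and 1 of the Cyp2d26 probes, and the probe called higher was Cyp1b1. At an unadjusted p under 0.05 in limma there were 17 of the 65 P450 probes tested and 3103 of all 19575 probes tested. These shares over all probes, for calls and for unadjusted p, are the reference for the counts in each group and list below. By size alone, 3 P450 probes were at least 1.5-fold lower on both arrays, against 0.516% of all probes, and 1 was at least 1.5-fold higher on both, against 2.14%.

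Most P450 probes lay close to equality. The median log2 ratio was -0.01 over the 65 tested P450 probes and 0.01 over all probes tested. Of the P450 probes, 22 (33.8%) were lower in the mutant on both arrays at any size, against 28.8% of all probes, 14 (21.5%) were higher on both, against 31.5%, and 29 (44.6%) had opposite signs on the arrays, against 39.7%. In whole kidney RNA, fewer cells of a type and less RNA per cell cannot be told apart.

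**Figure D1:**
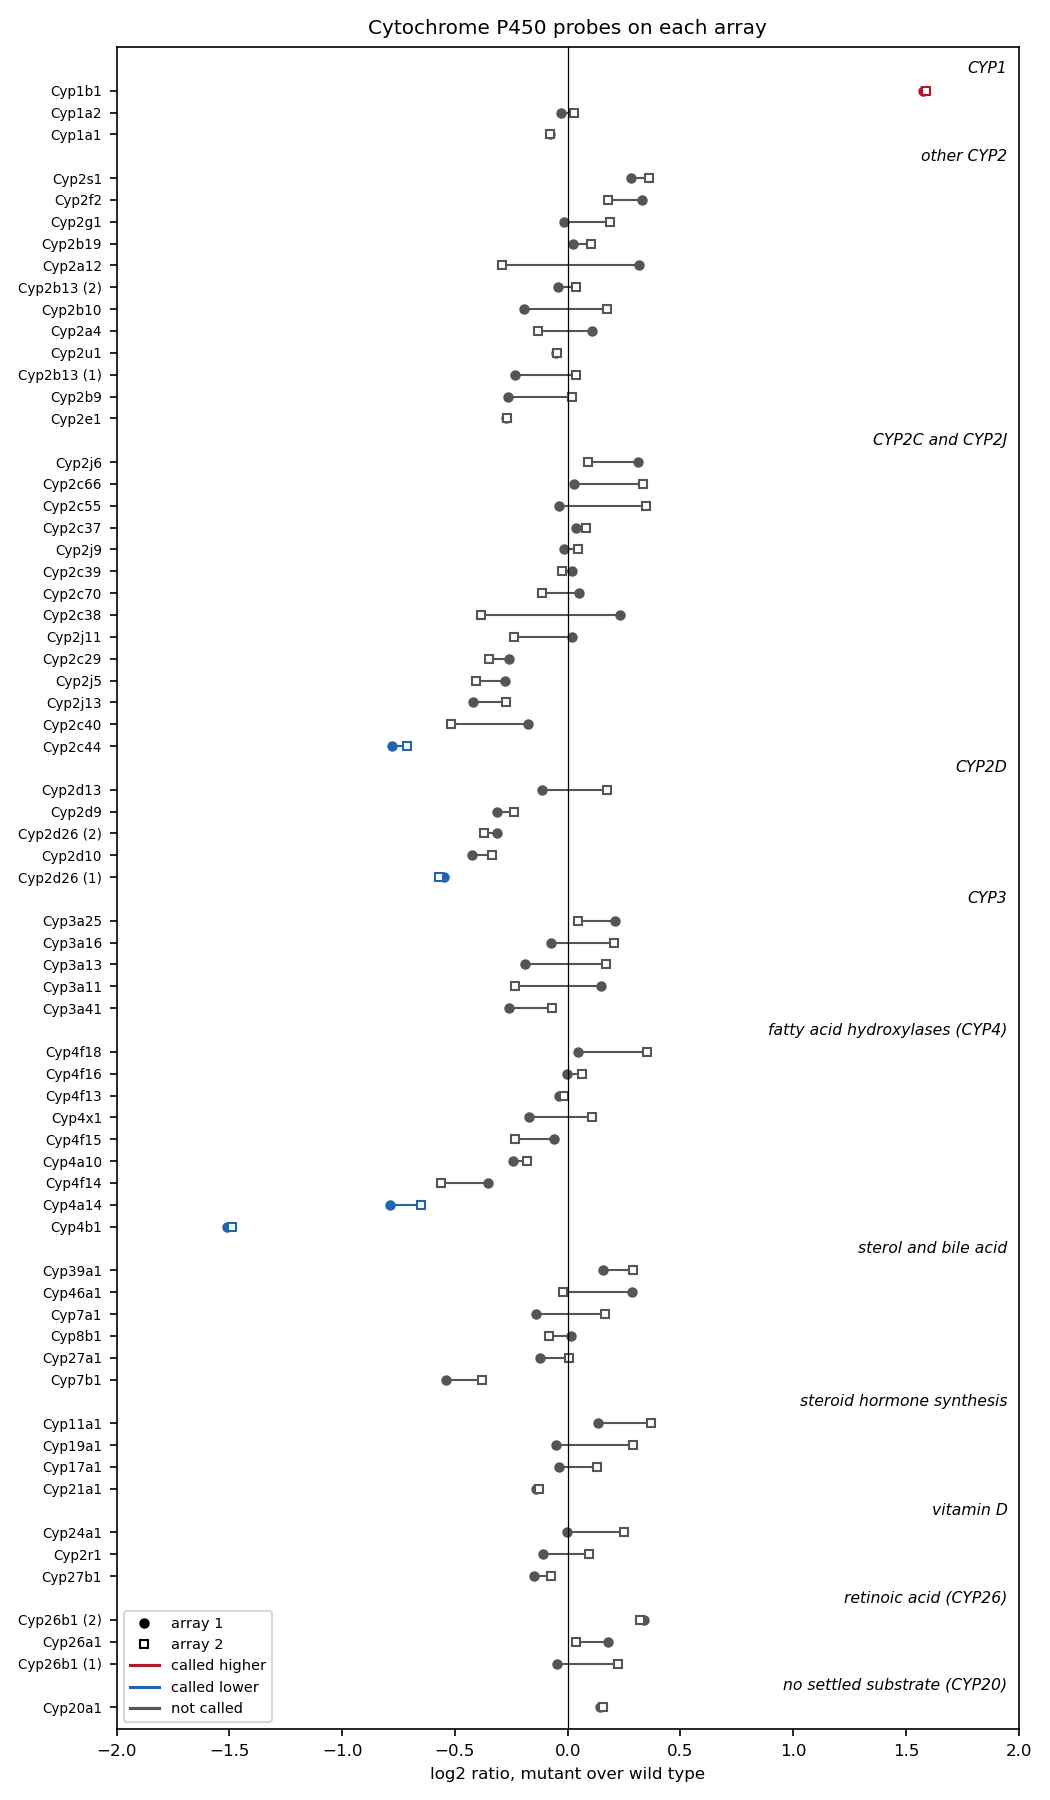
Log2 ratio of mutant over wild type on array 1 (filled circles) and array 2 (open squares) for the 65 tested P450 probes, grouped by role, with a line joining the arrays. Cyp1b1 lies near 1.6 on both arrays, Cyp4b1 near -1.5, and the 60 uncalled probes lie between -0.56 and 0.37.

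The CYP4 enzymes hydroxylate fatty acids at or near the end of the chain. Of 9 CYP4 probes, all tested, 2 were called lower and none higher. In the mutant 6 were lower on both arrays and 1 was higher on both, against 28.8% and 31.5% of all probes tested. The median log2 ratio was -0.15. Cyp4b1, which hydroxylates medium-chain fatty acids and activates several protoxins, had the lowest ratio of the P450 probes. Its normalized intensity was 9692 on array 1 and 10232 on array 2 in the mutant kidneys, against 27618 and 28702 in wild type kidneys. Both mutant values lay well below both wild type values, and the probe was 2.83-fold lower in the mutant (log2 ratio -1.50 ± 0.11 SE, n = 2 arrays, limma adjusted p = 0.000669).

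Cyp4a14, an omega-hydroxylase of fatty acids whose transcription is known to respond to the nuclear receptor PPAR-alpha, had normalized intensities of 5116 and 6432 in the mutant, against 8831 and 10096 in the wild type. The genotypes did not overlap, and the probe was 1.65-fold lower in the mutant (log2 ratio -0.72 ± 0.11 SE, n = 2 arrays, limma adjusted p = 0.0119). Cyp4a10, its relative that makes hydroxyeicosatetraenoic acid from arachidonic acid, had intensities of 1499 and 1536 in the mutant, against 1774 and 1742 in the wild type, and was not called (log2 ratio -0.21 ± 0.11 SE, n = 2 arrays, limma adjusted p = 0.398). The genotypes did not overlap for Cyp4a10 either, but the difference was small.

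The probes of the Cyp4f subfamily, whose members inactivate leukotrienes and other lipid mediators, spread from -0.46 to 0.20 and none of the 5 was called. Cyp4f14, a leukotriene hydroxylase, had intensities of 158 and 175 in the mutant, against 201 and 258 in the wild type. Its log2 ratio of -0.46 had an adjusted p of 0.0776 by limma. Cyp4f13 and Cyp4f16 were at -0.03 and 0.03, Cyp4f15 at -0.15 and Cyp4f18, known from white blood cells, at 0.20. Cyp4x1 was at -0.03 with opposite signs on the arrays.

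In RefSeq gene order, Cyp4a14, Cyp4a10, Cyp4a31, Cyp4a32 and Cyp4b1 follow each other. Their log2 ratios in that order were -0.72, -0.21 and -0.28, with no value for Cyp4a32, and -1.50 for Cyp4b1. The gene after Cyp4b1, Efcab14, which is no P450, was called higher in the mutant (log2 ratio 0.52, limma adjusted p = 0.0419). Of the 4 genes of this stretch with a value, the first and the last were called. Closely related genes of a cluster can bind each other's probes, and the share of such binding was not tested.

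The CYP2C and CYP2J enzymes are known as epoxygenases of arachidonic acid, whose epoxides act on blood vessels and sodium transport. Of 14 probes, all tested, 1 was called lower and none higher. In the mutant 5 were lower on both arrays and 3 higher on both, against 28.8% and 31.5% of all probes tested. The median was -0.05. The called probe was Cyp2c44, now named Cyp2c23, an epoxygenase of the kidney. Its intensity was 526 and 535 in the mutant, against 904 and 878 in the wild type. The mutant values were close to each other and below both wild type values, and the probe was 1.68-fold lower (log2 ratio -0.75 ± 0.11 SE, n = 2 arrays, limma adjusted p = 0.00931). In gene order Cyp2c23 stands apart from the other Cyp2c genes, and its neighbours Cpn1 and Erlin1, which are not P450 genes, had log2 ratios of 0.06 and -0.17.

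Cyp2j5, an epoxygenase known from the proximal tubule, had intensities of 6965 and 7005 in the mutant, against 8450 and 9288 in the wild type. The genotypes did not overlap, yet the log2 ratio of -0.34 did not pass the test (limma adjusted p = 0.169). Cyp2j13 was at -0.35 (limma adjusted p = 0.169) and did not pass the floor set by the negative control spots, their mean plus 2 SD, in either genotype on both arrays. The other Cyp2j probes were Cyp2j11 at -0.11, Cyp2j9 at 0.01 and Cyp2j6 at 0.20.

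Among the remaining Cyp2c probes, Cyp2c40 was at -0.35 and Cyp2c29 at -0.30, with limma adjusted p of 0.226 and 0.222. Cyp2c40 was at -0.17 on array 1 and -0.52 on array 2, and its intensities overlapped between the genotypes only across the arrays. Cyp2c37, Cyp2c39, Cyp2c55, Cyp2c66 and Cyp2c70 lay between -0.03 and 0.18. Cyp2c38 showed the widest disagreement between the arrays of any P450 probe, 0.23 on array 1 and -0.39 on array 2, and did not pass the negative control floor.

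The CYP2D enzymes oxidize drugs and, in mouse liver, testosterone. Of the 5 CYP2D probes, for 4 genes, 1 was called lower. In the mutant 4 were lower on both arrays and none was higher on both, against 28.8% and 31.5% of all probes tested. The median of -0.34 was the lowest of the role groups. Cyp2d26 had 2 probes. The called one had intensities of 8409 and 8658 in the mutant, against 12309 and 12862 in the wild type. Those values did not overlap, and the probe was 1.47-fold lower (log2 ratio -0.56 ± 0.11 SE, n = 2 arrays, limma adjusted p = 0.0293). The other Cyp2d26 probe had intensities of 1861 and 1874 in the mutant, against 2316 and 2425 in the wild type, with a log2 ratio of -0.34 that was not called (limma adjusted p = 0.160). Both probes of the gene thus had the same sign on both arrays and differed in size and in call.

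Cyp2d10 had a log2 ratio of -0.38 (limma adjusted p = 0.123) and Cyp2d9, known as a testosterone hydroxylase of male mouse liver, one of -0.28 (limma adjusted p = 0.271). For both genes the mutant intensities lay below the wild type intensities on both arrays. Cyp2d13 was at 0.03 with opposite signs. In gene order Cyp2d26 ends its cluster next to Cyp2d40, Cyp2d34 and Cyp2d12, whose probes carry other names in the files and had log2 ratios of -0.28, -0.26 and -0.31, none of them called. On its other side Tcf20, which is no P450 gene, was at 0.13. Binding of Cyp2d transcripts to the probes of related Cyp2d genes was not tested, so these probes may not be separate observations.

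The other CYP2 probes, 12 for 11 genes, were all uncalled, with ratios from -0.27 to 0.32 and a median of -0.01. Cyp2e1, which oxidizes ethanol and ketone bodies, had intensities of 2815 and 3025 in the mutant, against 3403 and 3640 in the wild type. Its arrays were close, at -0.27 each, but a difference of that size did not pass the test (limma adjusted p = 0.276). Cyp2s1, an enzyme of epithelia, had intensities of 985 and 1205 in the mutant, against 811 and 938 in the wild type. It had the highest ratio in this group, 0.32 (limma adjusted p = 0.193). Cyp2f2, known from airway cells, was at 0.25 (limma adjusted p = 0.326). Cyp2a4, a steroid hydroxylase, was bright in both genotypes and at -0.01. Cyp2g1 was at 0.09 and Cyp2u1 at -0.05. Cyp2a12 had 0.31 on array 1 and -0.29 on array 2, with a mean of 0.01, and the 5 Cyp2b probes lay between -0.12 and 0.06.

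The CYP1 enzymes oxidize polycyclic aromatic compounds and estrogens, and their genes are known targets of the aryl hydrocarbon receptor. Of 3 probes, 1 was called higher and none lower. Cyp1b1, known from fibroblast-like and steroid-producing cells, had intensities of 584 and 600.2 in the mutant, against 196 and 199 in the wild type. Both mutant values lay far above both wild type values, and the probe was 2.99-fold higher (log2 ratio 1.58 ± 0.11 SE, n = 2 arrays, limma adjusted p = 0.000559). These intensities include an offset of 50 added in processing, and the negative control floor of the wild type on array 2 was a net signal of 185. The wild type signal was thus dim, and the log2 ratio was 1.77 with an offset of 16 and 1.96 with the scanner log ratio. Cyp1a1 was at -0.08 and was well above background on 1 of 2 mutant arrays and 2 of 2 wild type arrays. Cyp1a2 was at -0.00092. Neither Cyp1a probe passed the negative control floor, so at this brightness a difference could not be seen well. The receptor itself, Ahr, was at 0.25 and not called (limma adjusted p = 0.338), its partner Arnt at 0.09 and its repressor Ahrr at -0.26. In gene order Cyp1b1 lies between Rmdn2, at 0.03, and Atl2, at 0.22.

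**Figure D2:**
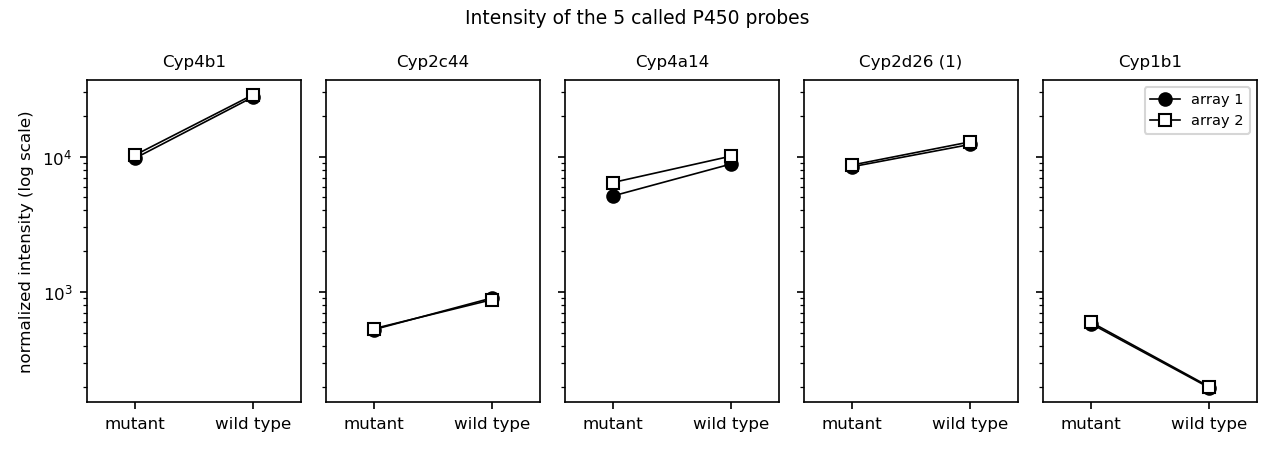
Normalized intensity on a log axis, mutant left and wild type right, on array 1 (filled circles) and array 2 (open squares) for the 5 called P450 probes. For each the mutant points lie on 1 side of both wild type points, above them for Cyp1b1 and below them for the others, and levels are not comparable between probes.

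The CYP3 enzymes oxidize steroids and drugs, mainly in liver and gut. None of the 5 Cyp3a probes was called. They lay between -0.17 for Cyp3a41 (now Cyp3a41a) and 0.13 for Cyp3a25, and 3 of them had opposite signs on the arrays. Cyp3a13 was at -0.01, Cyp3a11 at -0.04 and Cyp3a16 at 0.07. At an unadjusted p under 0.05 there were 0 probes in this group.

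Of 6 probes for enzymes of sterol and bile acid metabolism none was called. Cyp7b1, the oxysterol 7-alpha-hydroxylase, came closest of all uncalled P450 probes. Its intensity was 1093 and 1371 in the mutant, against 1590 and 1782 in the wild type, without overlap, and the log2 ratio was -0.46 (limma adjusted p = 0.0706). Cyp39a1, a hydroxylase of another oxysterol, was at 0.23 (limma adjusted p = 0.380). Cyp27a1, the mitochondrial sterol hydroxylase, was at -0.06, Cyp7a1, the rate-limiting enzyme of bile acid synthesis in liver, at 0.01, Cyp8b1 at -0.03 and Cyp46a1, known from brain, at 0.13. Cyp8b1 was well above background on 1 of 2 mutant arrays and 2 of 2 wild type arrays.

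The steroid hormone enzymes are known from adrenal gland and gonads. Their 4 tested probes were uncalled, with none under an unadjusted p of 0.05 (0 probes). Cyp11a1, the side-chain cleavage enzyme, was at 0.25 (limma adjusted p = 0.348), Cyp19a1, aromatase, at 0.12, Cyp17a1 at 0.04 and Cyp21a1 at -0.13. Of 11 adrenal markers, 1 was called higher and none lower: Mrap, the accessory protein of the ACTH receptor, which fat cells also make, was at 0.75 (limma adjusted p = 0.0103). The median of the adrenal list was 0.22. Of its genes, 4 had an unadjusted p under 0.05 in limma, against 3103 of the 19575 probes tested. Among the uncalled genes Hsd3b1 was at 0.58 (limma adjusted p = 0.0521), and Star and Akr1b7 were each at 0.29 (limma adjusted p of 0.295 and 0.286). Star did not pass the negative control floor. Dbh had the lowest ratio of the list, -0.28. On both arrays 6 of the adrenal genes were higher in the mutant and 4 lower, against 31.5% and 28.8% of all probes tested. The summed intensity of the adrenal list was 6041 and 5715 in the mutant, against 6168 and 6124 in the wild type. The largest part of the sum was the ferredoxin Fdx1, at 2821 and 3010 in the mutant, against 3123 and 3551 in the wild type.

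Of the vitamin D enzymes none was called. Cyp27b1, which activates vitamin D in the proximal tubule, had intensities of 404 and 360 in the mutant, against 449 and 378 in the wild type. These values overlapped across the arrays, while within each array the mutant was slightly lower, at log2 ratios of -0.15 and -0.07. The mean log2 ratio was -0.11 (limma adjusted p = 0.678). Cyp24a1, which inactivates the hormone, was at -0.0025 on array 1 and 0.25 on array 2 and did not pass the negative control floor. Cyp2r1, which makes the precursor in liver, was at -0.01. Of 10 other genes of vitamin D and phosphate handling, 2 were called lower and none higher, against 1.06% and 3.41% of all probes tested. The called genes were the phosphate transporters Slc34a1 (log2 ratio -0.61, limma adjusted p = 0.0220) and Slc34a3 (-0.54, limma adjusted p = 0.0343). The receptor Vdr was at 0.04.

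The CYP26 enzymes break down retinoic acid. Their 3 probes were uncalled. The probes of Cyp26b1 were at 0.09 and 0.33. The second had intensities of 331 and 463 in the mutant, against 262 and 370 in the wild type, and a limma adjusted p of 0.176. Cyp26a1 was at 0.11 and dim, well above background on 1 of 2 mutant arrays and 2 of 2 wild type arrays. Of 13 tested genes of retinoid handling, 3 were called higher and none lower, against 3.41% and 1.06% of all probes tested. Among the called genes were Rarres2, a retinoid-induced chemokine gene, at 1.11 and the plasma carrier Rbp4 at 0.96, with limma adjusted p of 0.00201 and 0.00438. Cyp20a1, an enzyme with no settled substrate, was at 0.15.

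**Figure D3:**
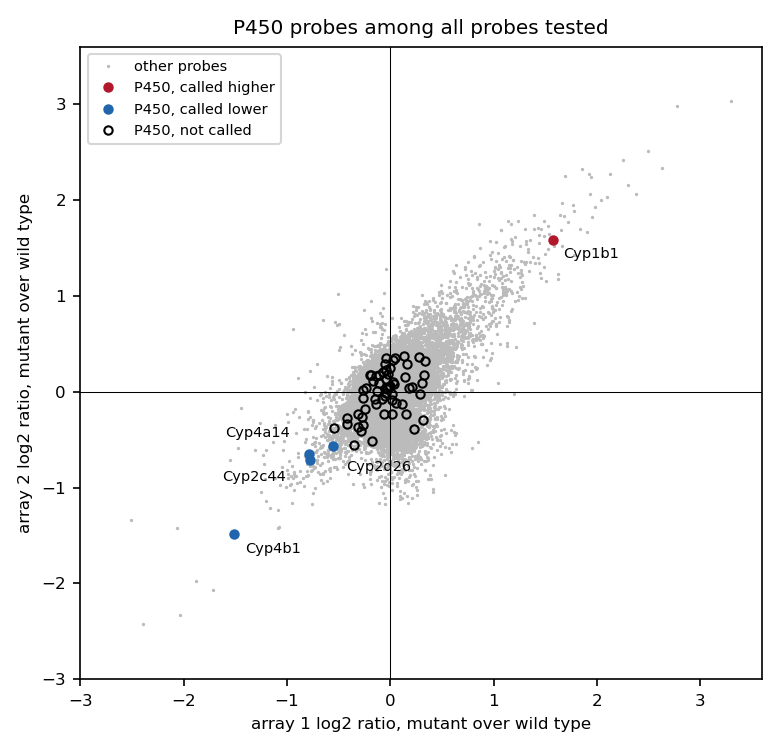
Log2 ratio of mutant over wild type on array 1 (x axis) against array 2 (y axis) for all 19575 tested probes in grey and the P450 probes in colour or as open circles. Cyp1b1 lies at the upper right at 1.58 and 1.59, the 4 probes called lower lie at the lower left, and the open circles lie around the origin.

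Enzymes need electrons and heme, so the genes that supply both were read in the same fit, with the probe of highest mean intensity standing for a gene. Of 7 tested electron partners none was called, with 1 under an unadjusted p of 0.05 in limma, against 3103 of all 19575 probes. That one was Por, the oxidoreductase that serves the enzymes of the endoplasmic reticulum, with intensities of 9710.2 and 9416 in the mutant, against 12242 and 13364 in the wild type (log2 ratio -0.42, limma adjusted p = 0.0949). Of 10 genes of heme synthesis and breakdown, 1 was called lower and none higher. It was Alas1, the rate-limiting enzyme of heme synthesis, with intensities of 2481 and 2459.8 in the mutant, against 3490.4 and 3700.01 in the wild type. Its genotypes did not overlap (log2 ratio -0.54 ± 0.11 SE, n = 2 arrays, limma adjusted p = 0.0350). Cpox, a later enzyme of the path, was at -0.51 and Fech, which inserts the iron, at -0.33, neither called, and the median of the list was -0.03.

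Of 18 regulators of P450 transcription, 1 was called higher and none lower. Ppargc1a, a coactivator of nuclear receptors, was at 0.69 (limma adjusted p = 0.0146). Ppara was at -0.35 (limma adjusted p = 0.178) and the median of the list at -0.04. Of 16 other genes known as PPAR-alpha targets, 1 was called lower and 1 higher. In the mutant 13 were lower on both arrays and 1 higher on both, against 28.8% and 31.5% of all probes tested. The median was -0.18. The called genes were Ehhadh, of peroxisomal fatty acid oxidation, at -0.58 (limma adjusted p = 0.0274) and Pdk4, which restrains glucose oxidation, at 0.93 (limma adjusted p = 0.00391). Of 14 eicosanoid enzymes that the naming rule did not pick, none was called. An unadjusted p under 0.05 in limma was reached by 4 of them, against 3103 of all 19575 probes tested. The epoxide hydrolase Ephx2, which breaks down the epoxides of the CYP2C and CYP2J enzymes, was at -0.27, and Ephx1 and Pla2g4a, the phospholipase that frees arachidonic acid, were both at 0.37.

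Markers of cell types that the kidney holds were read in the same fit. Of 21 proximal tubule markers, 6 were called lower and none higher, against 1.06% and 3.41% of all probes tested, with a median of -0.40. In the mutant 17 were lower on both arrays and 1 was higher on both, against 28.8% and 31.5% of all probes tested. Miox and Kap were saturated in at least 1 channel, so their ratios near 0 do not bear on a difference. Without these 2 genes the summed intensity was 102392 and 119351 in the mutant, against 141849 and 160896 in the wild type, and with them it was 233301 and 248958 in the mutant, against 270619 and 292434 in the wild type. The lowest ratios among them were those of Slc7a13, an amino acid transporter, at -0.91 (limma adjusted p = 0.0041) and of Acsm3 at -0.86 (limma adjusted p = 0.0076). All 21 markers were above the negative control floor. The part of tubule content in the 4 P450 probes called lower was not tested.

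Of all probes tested, 3.41% were called higher and 1.06% lower, the shares to set beside each list of this paragraph. Of 12 macrophage markers, 10 were called higher and none lower, with a median of 1.03. Their summed intensities were 17666 and 19471 in the mutant, against 6410 and 6978 in the wild type. The adipocyte list had 7 of 12 markers called higher and 1 called lower, with a median of 0.99. Of the uncalled markers, Pck1, which proximal tubule cells also make, was saturated in at least 1 channel. Without it the sums were 41291 and 42319 in the mutant, against 19315 and 21692 in the wild type, and with it 94125 and 107115 in the mutant, against 83786 and 87451 in the wild type. Of 7 tested markers of stromal cells, a list added after the values were seen, 6 were called higher and none lower, with a median of 1.46 and sums of 9594 and 10764 in the mutant, against 3339 and 3469 in the wild type. All 12 macrophage and all 12 adipocyte markers and 6 of the stromal markers were above the negative control floor. The part of these cells in the higher Cyp1b1 signal was not tested. Of 11 liver markers 1, Hpd, was called lower and none higher.

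Several kidney P450 genes, Cyp4b1 among them, are known to differ between male and female mice. Of 8 androgen-responsive kidney genes, 5 were called lower and none higher, against 1.06% and 3.41% of all probes tested, with a median of -0.85. Of the 3 uncalled genes, Kap was saturated in at least 1 channel, Gusb was at -0.11 and Hsd11b1 was at 0.36, higher on both arrays. Cyp4a12a, androgen-responsive but not on this list, was uncalled at -0.06. The called genes were Ugt2b38 at -1.19, Slco1a1 at -0.95, Slc7a13, Acsm3 and Odc1, of polyamine synthesis, at -0.85, and 2 of them are also on the proximal tubule list. Of 5 genes known to be higher in female kidney, 4 were also called lower, against the same 1.06% of all probes tested. Among the called ones were Hdc, histidine decarboxylase, at -2.18 and Akr1c18 at -1.90 (limma adjusted p of 0.000285 and 0.000531). The uncalled one, Abcb1b, was at 0.13. The androgen-responsive and female lists were chosen with earlier results of these data known. Their calls are therefore not independent of those results. Of 6 tested Y-linked genes none was called and none was under an unadjusted p of 0.05 in limma (0 genes), with a median of 0.04. Only 4 of these 6 were above the negative control floor, and in the others a difference may not be visible. Xist was at -0.31 on array 1 and 0.00343 on array 2 and was not called (limma adjusted p = 0.607). The part of hormone state or of the sex of the pooled kidneys in the P450 results was not tested.

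**Figure D4:**
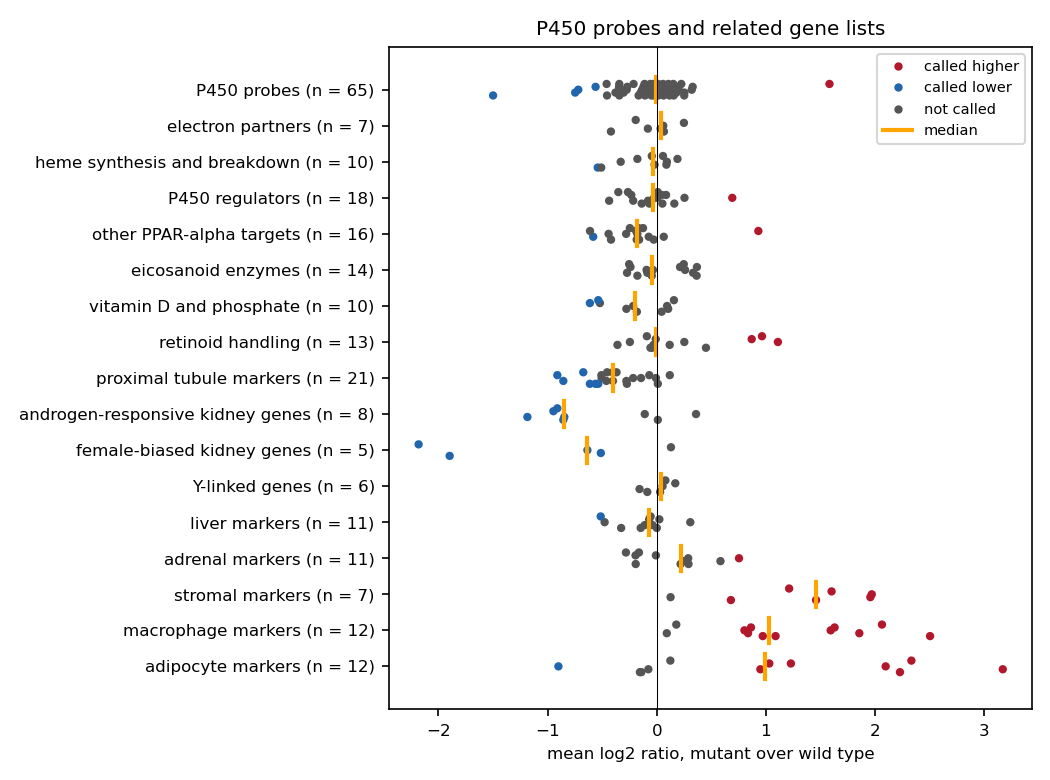
Mean log2 ratio of mutant over wild type for the 65 tested P450 probes (top row) and for the genes of related lists, red where called higher, blue where called lower and grey otherwise, with the median of each list as an orange bar. The P450 median lies at -0.01, the proximal tubule median at -0.40 and the macrophage median at 1.03.

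The 5 calls differed in how they depended on the processing. With the background offset set to 16 or with median centring, Cyp1b1 and Cyp4b1 stayed called and Cyp2c44, Cyp4a14 and Cyp2d26 did not, at limma adjusted p of 0.0570, 0.0749 and 0.119 with the offset of 16 and 0.0763, 0.108 and 0.137 with median centring. With the log ratios that the scanner software wrote, 0 probes of the whole array were called by limma, 2600 had an unadjusted p under 0.05, and the 5 probes kept their sign. Over all settings the log2 ratio lay between -1.54 and -1.49 for Cyp4b1, between 1.55 and 1.96 for Cyp1b1, between -0.82 and -0.71 for Cyp2c44, between -0.79 and -0.65 for Cyp4a14 and between -0.60 and -0.55 for the called Cyp2d26 probe, arrays taken singly included.

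**Figure D5:**
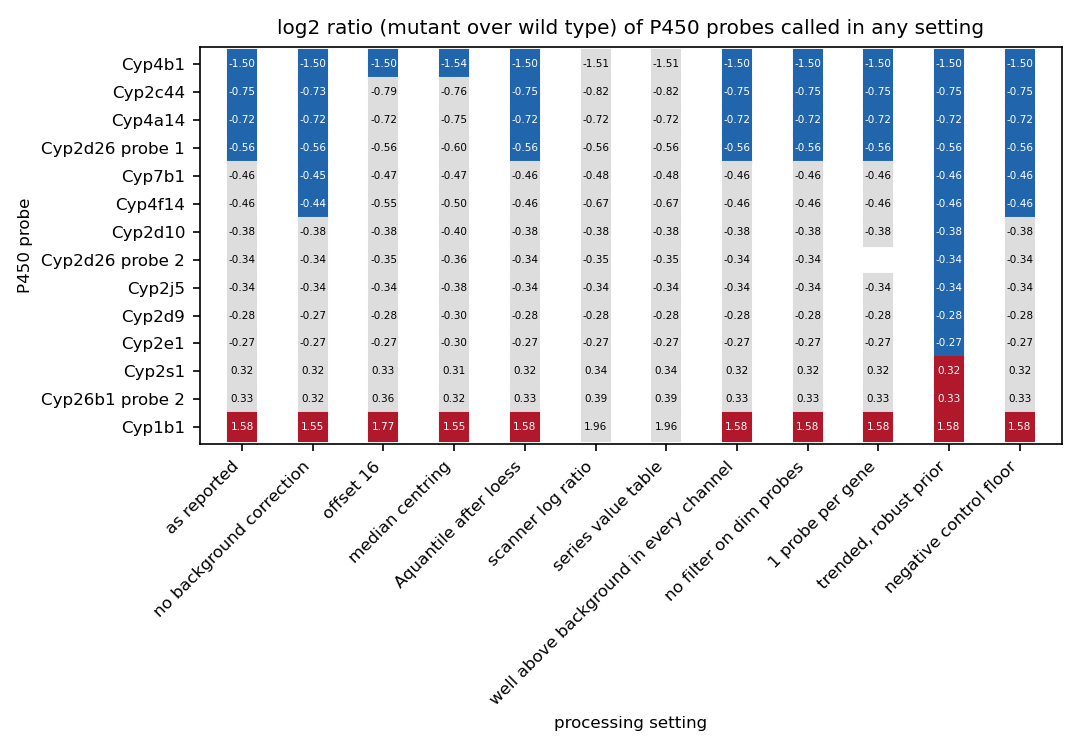
Log2 ratio of mutant over wild type (number in each square) for each P450 probe called in at least 1 setting, by processing setting, in red or blue where the limma adjusted p is under 0.05 and grey otherwise. Cyp4b1 and Cyp1b1 are coloured in all settings except those that use the scanner log ratio or the value table.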

How the data were processed

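Each array's file holds the mean and background intensity per spot in Cy3 and Cy5, as the authors deposited it from Agilent Feature Extraction 8.1.1.1, per the file headers, together with the software's log10 ratio of red over green. Per the labels' protocols, 500 ng of total RNA was amplified and 750 ng of cRNA per dye was hybridized for 17 h. The deposited value table holds the same log10 ratios with the sign turned (largest difference 0 over 22393 features), which makes it Cy3 over Cy5, with a median of 0 on each array. The genome build is not given in the sources used here.

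From these intensities, normexp (offset 50) and loess with control spots at weight 0 were run in limma 3.58.1 (R 4.3.3), 88 spots marked as outliers were left out, array 1 was turned, spots of a probe were averaged, and log2 ratios of mutant over wild type were fitted with lmFit and eBayes on 7.4 degrees of freedom, 1 from the arrays and the rest from the prior. The scripts were tested on simulated data. The negative control floor is the mean plus 2 SD of negative control spots. In net signal on arrays 1 and 2 it was 22.8 and 62.6 for the mutant, and 6.86 and 185 for the wild type. A probe passed if at least 1 genotype was above its floor on both arrays, so the limit was uneven between genotypes. Names come from accessions for 59 P450 probes and from symbols for 7. Named genes are the called probes, the 12 next in size and a list of examples. The P450 members and all lists were chosen with earlier results of these data known, and no list was tested as a set. Some members of the related lists are not reported here by name. The number of arrays limits the precision. Alternatives covered background, normalization, ratio source, filters, probe choice, prior and each array alone.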

Additional observations from a re-analysis of the deposited data

How the results depend on the processing

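The count of P450 probes called lower, 4 as reported, was 1 with an offset of 16, 1 with median centring, 0 with the scanner log ratio, 0 with the value table and 11 with a trended, robust prior. The count called higher, 1 as reported, was 0 with the scanner log ratio, 0 with the value table and 3 with the trended prior. Of P450 probes with the scanner log ratio, 14 had an unadjusted p under 0.05 in limma. The count at least 1.5-fold apart on both arrays, 4 as reported, was 2 at 2-fold, 3 with median centring, 4 with an offset of 16, 5 with the scanner log ratio and 4 on either array alone. Over all probes, 667 higher and 208 lower calls became 253 and 40 with the offset of 16, 208 and 31 with median centring, 0 and 0 with the scanner ratio and 1577 and 945 with the trended prior. The other settings (no background correction, both other filters, 1 probe per gene, and a negative control floor added after seeing the data) gave 1 higher and 4 to 6 lower. Aquantile scaling leaves log ratios as they are, so its identical values bear on nothing. Cyp7b1 and Cyp4f14 became called without background correction, with that floor and with the trended prior. The cause of these changes was not tested. Of the 65 members, 29 changed sign in at least 1 setting or array, none of them called. Both genotypes share each array, so the fitted log ratio is itself the paired comparison and no other pairing was fitted. A single array leaves no degrees of freedom for limma, so it gave values only. Signal over background was a median of 4.06 to 5.18, and 15 of the tested P450 probes did not pass the negative control floor, where a difference may not be visible.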

Other observations

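The array also holds 9 probes that RefSeq's tables now name as P450 genes but that carry another kind of name in the files, among them Cyp51, the lanosterol demethylase of cholesterol synthesis, whose name has no subfamily letter. Of these, 8 were tested and 0 were called by limma. An unadjusted p under 0.05 was reached by 5 of the 8, against 3103 of all 19575 probes tested. The log2 ratios of the 8 ran from -0.38 for Cyp4f39 to 0.18 for Cyp2ab1. In the mutant 5 were lower on both arrays and 0 were higher on both, against 28.8% and 31.5% of all probes tested. Cyp51 was at -0.06 and Cyp4a12a, an androgen-responsive fatty acid hydroxylase of male kidney, at -0.06. The 3 Cyp2d probes among them, Cyp2d12, Cyp2d34 and Cyp2d40, were all lower on both arrays at -0.31, -0.26 and -0.28. A further 7 probes mention cytochrome P450 only in their description. Among them is Tyw1, described by a weak likeness to the P450 reductase, which is no P450.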
